A study of Rattus norvegicus with 244 samples.

Results

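The somatomotor cortex of rats that had the operation without a spinal cord injury was compared between the first day and the weeks after it. The sham operation, a laminectomy, opens the vertebral canal and leaves the cord uninjured, so the comparison addresses how a distant brain region responds to surgery without injury. Samples were chosen by the times in their titles: the early side holds 4 samples (2 at 4 h and 2 at 24 h) and the late side 5 samples (2 at 7 d, 1 at 14 d and 2 at 28 d). These 9 samples (27 arrays) are part of a series of 84 samples (244 arrays) of rat cortex and raphe, a brainstem region, after sham surgery or moderate spinal cord injury. The second 14 d sample, whose arrays stood apart in their lowest signals, was left out of both sides. Naive cortex (4 samples), sham cortex at 30 min (2 samples, on arrays of type A alone) and sham cortex at 72 h (1 sample) serve as reference levels without a test. The labels give neither strain, sex nor age, and they do not say that samples came from separate rats, so p-values measure the spread between these samples, which may in part be technical.

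Anaesthesia and surgery activate the hypothalamus, pituitary and adrenal axis, and the adrenal cortex releases corticosterone, the main glucocorticoid of the rat. The hormone enters the brain and binds the glucocorticoid receptor, a transcription factor in neurons and glia that raises the transcription of Fkbp5, Tsc22d3, Klf9, Sgk1 and other genes. Fkbp5 encodes a co-chaperone that lowers the affinity of the receptor for the hormone, and Tsc22d3 encodes an anti-inflammatory leucine zipper protein.

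Each sample was measured on 3 array types (A, B and C) that carry different probe sets, a probe set being a group of short probes for 1 transcript. The deposited signals of the 27 arrays had medians of 223.8 to 383.7, and their 5th percentiles lay between 7.9 and 20.8, against 44.8 to 66.1 on the 3 arrays of the 14 d sample left out. The number of arrays limits the precision. The actin 3' over 5' ratio, a measure of RNA integrity, ran from 1.44 to 2.01 on early and from 1.20 to 2.25 on late arrays. On types A and B the early range lay within the late one. On type C, which carries Fkbp5 and Tsc22d3, the ratio was lower early, at 1.44 to 1.57 against 1.49 to 2.15 late, with a small overlap. Control probe sets for bacterial and yeast genes absent from the rat (19) gave a median signal of 24.0 and a 95th percentile of 117.9 on these arrays. Signals near that level are dim. The cortex markers Nrgn and Camk2a stood at the 99.6th and 94.0th percentile of their arrays on average, whereas the only probe set for Slc17a7, a vesicular glutamate transporter of cortical neurons, stood at the 9.2nd. Of the striatal markers, Drd2 stood at the 14.2nd percentile, Rgs9 at the 38.7th, Drd1 at the 39.0th and Adora2a at the 63.0th. The brainstem markers Chodl, Prph and Slc6a5 stood at the 18.4th, 44.5th and 46.4th.

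Few probe sets passed the test of early against late. Of 16328 probe sets tested with limma, 10 passed an adjusted p of 0.05 (percent called 0.0612), 9 of them higher early (0.0551%) and 1 lower early (0.00612%). At an unadjusted p under 0.05 there were 1876 (11.5%). In 840 probe sets (5.14%) the 4 early and 5 late signals did not overlap, with early higher in 478 (2.93%) and lower in 362 (2.22%). Differences are given as early minus late on the log2(signal + 32) scale with their standard error, which understates the change of dim transcripts. Of the 10, the annotation gives 5 a single gene symbol (Klf9, Rps15, Pxk, Crp and Slc45a3) and the other 5 none. In all 10 the sides did not overlap. In 4 of the 10 (Pxk and 3 without a symbol) no late array exceeded the filter on dim signals, so these were tested only through their early signals. In Slc45a3 no early array exceeded it. The Klf9 probe set among the 10 exceeded it in 2 late arrays, fewer than the 4 arrays a test needed. The number of calls moved with single samples: without sample 1 of 24 h or sample 2 of 4 h 0 probe sets passed, and without sample 2 of 7 d 49 passed. The filter was applied anew in these fits. Slc45a3 and the 4 probe sets over it in no late array were therefore tested in only 5 of the 9. With the tested probe sets kept as they were for all 9 samples, leaving out each sample gave 1 to 52 calls, and rc_AI639356_at was the one of the 10 that passed each time.

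Klf9, a transcription factor of the zinc finger family that glucocorticoids and thyroid hormone induce, rose early on 1 of its 3 probe sets. That probe set, rc_AI071565_s_at on type C, gave 1295 and 1288.5 at 4 h, 1187 and 998.4 at 24 h, 168.9 and 465.3 at 7 d, 189.2 at 14 d and 167.1 and 288.1 at 28 d. Every early sample was above 2 times the highest late sample. The log2 difference was 2.18 ± 0.26 (n = 4 and 5, limma adjusted p = 0.0208, higher in 4 of 4 early samples). The naive samples gave 356.4 to 727.6 and the 72 h sample 449.3. All were below every early sample, while the 72 h and the lowest naive signals lay within the late range. The other Klf9 probe sets, both on type A and brighter, did not pass: D12769_g_at differed by 0.23 ± 0.27 and D12769_at by 0.31 ± 0.19 (adjusted p = 0.787 and 0.576). D12769_g_at gave 5138 and 4446 at 4 h but 3056 and 3154 at 24 h, against 1872 to 4938 on the late side. The 3 probe sets thus disagree on Klf9, and the letter s in the name of the first marks probes that more than 1 transcript can bind. When single samples were left out, the first probe set passed in 3 of 9 fits and its adjusted p reached 0.180 (without sample 2 of 4 h). With the tested probe sets kept as for all 9 samples it also passed in 3 of 9, with an adjusted p of up to 0.114.

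Pxk, a kinase-like protein with a lipid-binding PX domain, rose by 1.22 ± 0.16 (adjusted p = 0.0208, 4 of 4 samples). Its early signals were 278.2 and 283.1 at 4 h and 342.4 and 278.0 at 24 h, and its late signals 78.6 to 130.9. Naive cortex gave 45.7 to 212.8, so the early samples stood above the naive as well as the late range. Slc45a3, a membrane transporter of the sugar transporter type, was lower early (adjusted p = 0.0460, 4 of 4 samples). It gave 54.1 and 52.3 at 4 h and 52.4 and 66.3 at 24 h, all under the 95th percentile of the foreign-gene controls, against 157.3 at 14 d, 223.3 and 268.6 at 28 d and 442.7 and 431.4 at 7 d. Its late mean was therefore at least 2.40-fold higher, counted against that percentile, and the fitted log2 difference of -1.85 ± 0.26 rests on a dim early level. Naive cortex (183.1 to 244.9) lay in the late range.

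Rps15, a protein of the small ribosomal subunit, was higher early by 0.96 ± 0.12 on the probe set rc_AA892895_i_at (adjusted p = 0.0208). Its early signals of 1526 to 1802 all exceeded its late signals of 750.9 to 930.7. Its other 2 probe sets, which are brighter, differed by 0.19 ± 0.15 and 0.20 ± 0.16 (adjusted p = 0.666 and 0.659). The annotation gives U83119_f_at to Crp, the acute-phase C-reactive protein made in liver. This probe set was higher early by 1.30 ± 0.18 (limma adjusted p = 0.0273), at 3111 to 4158 early and 1128 to 1771 late. The letter f in its name marks probes shared by a family of sequences, so the transcript behind the signal is uncertain. The other Crp probe sets, M13101cds_f_at and rc_AA818144_at, gave 0.74 ± 0.23 and, with the opposite sign, -0.48 ± 0.38 (adjusted p = 0.265 and 0.662). A change of Crp itself was thus not shown.

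The 5 probe sets without a symbol were all higher early than late. The smallest adjusted p among the 10 was that of rc_AI639356_at (0.00237). It gave 570.1 and 529.9 at 4 h and 432.6 and 859.7 at 24 h, against 104.4 and 52.9 at 7 d, 62.4 at 14 d and 39.1 and 62.9 at 28 d. All late signals were thus under the 95th percentile of the foreign-gene controls, and the early mean was at least 4.91-fold higher, counted against that percentile (fitted log2 difference 2.70 ± 0.23). The same holds for rc_AI234828_at, whose early mean was at least 2.37-fold higher (fitted 1.61 ± 0.18). The others were AF034863_at (1.28 ± 0.16), rc_AI044232_at (1.11 ± 0.14) and rc_AI072643_at (1.00 ± 0.12). All 4 of these had an adjusted p of 0.0208.

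**Figure D1:**
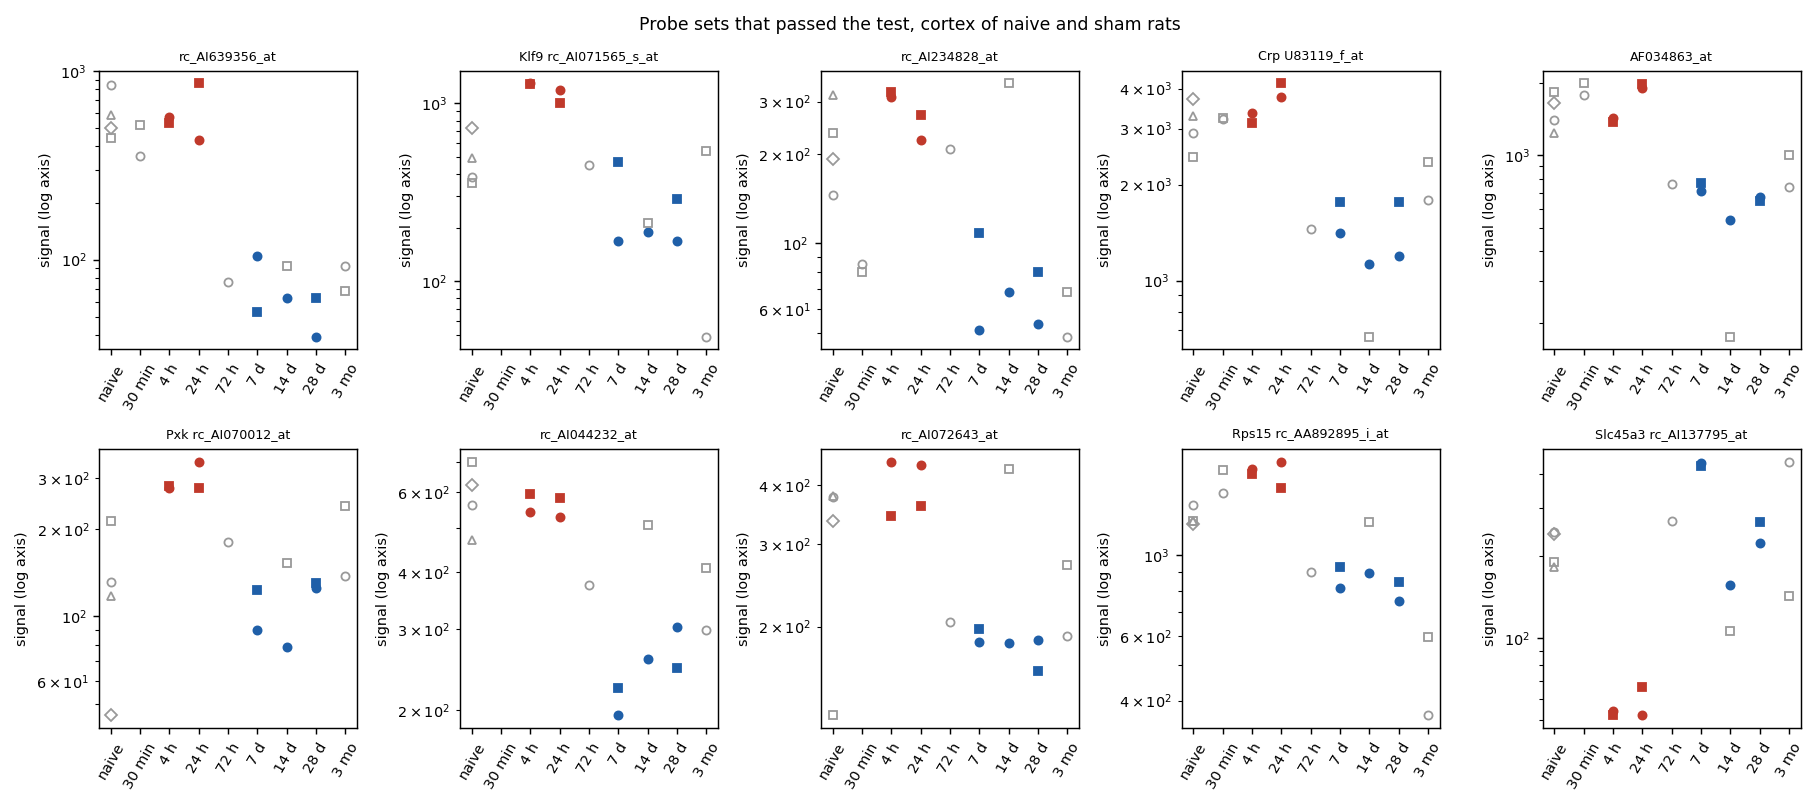
Signal of the 10 probe sets that passed the test in each cortex sample of naive and sham rats, on a log axis, by group (red, early side; blue, late side; open grey, samples of neither side, with 3 months and the 14 d sample left out; circle, square, triangle and diamond, samples 1 to 4). The 4 red points lie outside the range of the 5 blue points in every panel, while the naive points of rc_AI639356_at, Crp and AF034863_at lie at the height of the red ones.

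The naive samples, which took no part in the choice of these probe sets, give the level of unoperated cortex. In 7 of the 10 the naive mean was nearer the early than the late mean, so for these the early level was the one closer to unoperated cortex. AF034863_at gave 1240.4 to 1836 in naive cortex, 1792 and 1996 at 30 min and 1372 to 1975 on the early side, then 758.5 at 72 h and 537.5 to 764.7 late. Likewise rc_AI639356_at gave 442.9 to 841.7 in naive cortex, 354.7 and 516.6 at 30 min and 75.9 at 72 h. The probe set U83119_f_at, annotated as Crp, gave 2435 to 3712 in naive cortex, 3213 and 3226 at 30 min and 1450.4 at 72 h. The naive signals of Rps15 (1217.5 to 1370) lay between its sides, closer to the early one. In contrast, Klf9, Pxk and Slc45a3 had naive means nearer the late mean.

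Across all probe sets whose sides did not overlap, the naive mean was nearer the early mean in 291 of the 478 that were higher early (60.9%) and in 213 of the 362 that were lower (58.8%), beside 53.9% of all 16328 probe sets. The shares differed by array type. They were 74.4% and 66.7% on type A beside 59.0% of all, 53.5% and 48.2% on type B beside 48.3%, and 58.8% and 61.8% on type C beside 54.5%, so on type B the probe sets lower early did not exceed the share of all. The single 72 h sample was nearer the early mean in 34.9% of the 478 and 31.2% of the 362, beside 45.7% of all. The mean of the injured cortex at 4 h and 24 h was nearer the early sham mean in 31.6% and 32.3%, beside 41.6% of all, and in 1 of the 10 that passed. The labels name no processing batch, and whether arrays of naive and early sham cortex were handled together was not tested. Time after surgery and any such handling cannot be told apart.

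**Figure D2:**
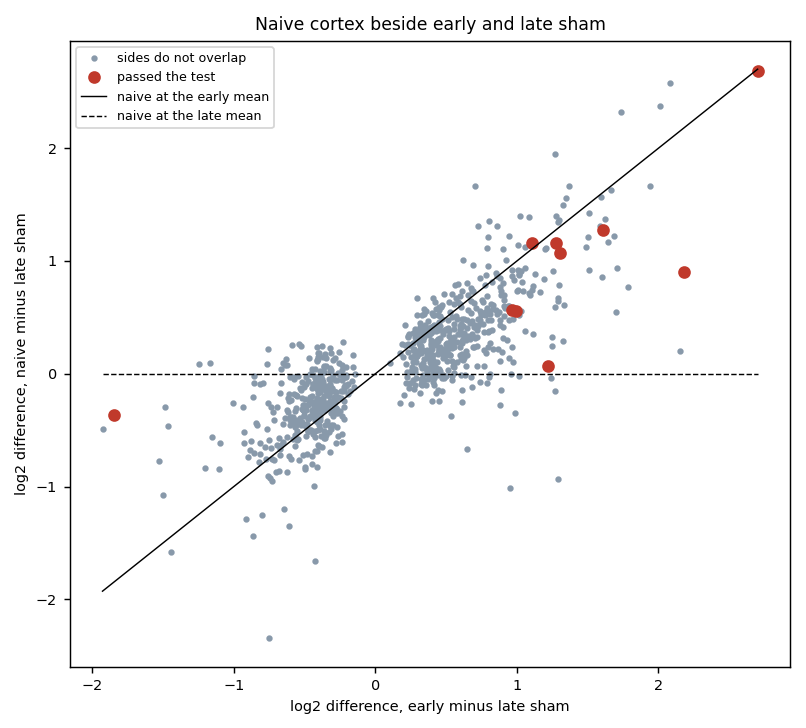
Each point is 1 of the 840 probe sets whose early and late signals did not overlap, with the log2 difference of early minus late sham cortex on the horizontal axis and of naive minus late sham cortex on the vertical axis. Both differences share the late mean. Points on the solid line have naive cortex at the early mean and points on the dashed line at the late mean, and 7 of the 10 red points, which passed the test, are nearer the solid line.

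Fkbp5 and Tsc22d3, the genes that mark the comparison, were high in 3 of the 4 early samples and did not pass. Fkbp5 gave 1723.5 and 1743 at 4 h and 1462 and 301.8 at 24 h, against 222.8 and 211.1 at 7 d, 228.0 at 14 d and 212.3 and 220.9 at 28 d. Naive cortex gave 203.7 to 331.0 and the 72 h sample 301.0. Thus sample 2 of 24 h stood within the naive range, though above every late sample, and the other 3 early samples were more than 4 times the highest naive one. The log2 difference was 2.15 ± 0.43 (adjusted p = 0.146, 4 of 4 samples). Of the 9 fits that leave out 1 sample, Fkbp5 passed in 1, the one without sample 2 of 24 h, its lowest early sample (2.73, adjusted p = 2.86e-05). In the others its adjusted p reached 0.345. Tsc22d3 gave 2913 and 2693 at 4 h and 2882.5 and 1826 at 24 h, against 1267.5 to 1831 late, 1073 to 1232 in naive cortex and 1457 at 72 h. Its difference was 0.79 ± 0.17 (adjusted p = 0.167), and the sides overlapped through sample 2 of 24 h. At 3 months, which belongs to neither side, Tsc22d3 gave 3232.3 and 1884.4 and Fkbp5 161.7 and 294.5, so 1 of these late samples had more Tsc22d3 signal than any early one.

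Over the 20 tested genes of the list described next, sample 2 of 24 h was the lowest early sample in 10, beside 28.1% of all genes, and sample 1 of 24 h in 5. The 3 genes that follow were chosen after their values were seen, and Gpd1 is not in that list. Nfkbia, the inhibitor that holds NF-kappa-B in the cytoplasm, gave 3228 and 2922 at 4 h and 3041 and 925.5 at 24 h, against 890.1 to 1576 late (0.89 ± 0.35, adjusted p = 0.366). Ddit4, an inhibitor of the mTORC1 kinase, gave 682.7 and 984.5 at 4 h and 1027 and 467.0 at 24 h, against 283.7 to 456.5 late (1.02 ± 0.24, adjusted p = 0.177). Gpd1, the glycerol-3-phosphate dehydrogenase of the cytoplasm, which hydrocortisone induces in rat oligodendrocytes, gave 4849 and 5807 at 4 h and 5718 and 3368 at 24 h, against 1651 to 2404 late and 2226 to 2931 in naive cortex. The early Gpd1 signals thus exceeded every late and every naive signal (1.25 ± 0.19, adjusted p = 0.0599).

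**Figure D3:**
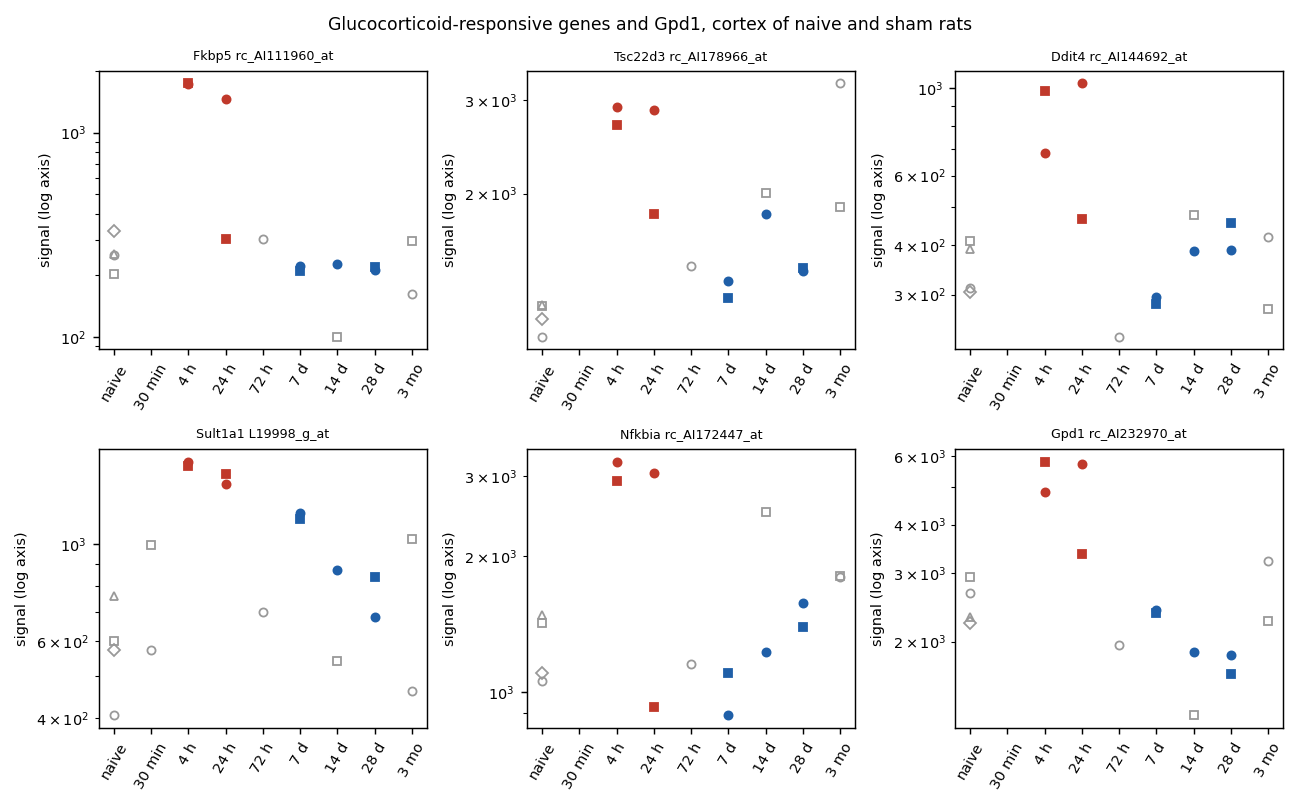
Signal of Fkbp5, Tsc22d3, Ddit4, Sult1a1, Nfkbia and Gpd1 in each cortex sample of naive and sham rats, on a log axis, by group (red, early side; blue, late side; open grey, samples of neither side, with 3 months and the 14 d sample left out; circle, square, triangle and diamond, samples 1 to 4). In 5 of the 6 panels, all but Sult1a1, the red square at 24 h, sample 2, is the lowest early point, at 301.8 for Fkbp5 and 925.5 for Nfkbia.

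A list of 29 glucocorticoid-responsive genes had 20 members tested, each through its brightest probe set (for Klf9, D12769_g_at), and 0 passed (percent called 0.024 over 8342 genes). Of the 20, 16 were higher early, with a median difference of 0.38, beside 48.4% of all genes and a median of -0.01. At an unadjusted p under 0.05, 9 were higher and 0 lower, beside 4.88% and 5.03% of all genes, and in 3 (Fkbp5, Ddit4 and Sult1a1) the sides did not overlap with early higher (2.43% of all genes), while 0 had early lower without overlap (2.55%). Every one of the 20 exceeded the filter in at least 1 late sample. Fkbp5 did so in 1 late sample and Angptl4 and Nedd9 in 3 each, fewer than the 4 arrays a test needed. These genes were tested with the help of their early signals. The 9 were Fkbp5, Tsc22d3, Ddit4, the phenol sulfotransferase Sult1a1 (0.65 ± 0.17), the kinase Sgk1 (0.68 ± 0.23), the glutamine synthetase Glul (0.51 ± 0.17 on its brightest probe set), the lipoprotein lipase inhibitor Angptl4 (1.06 ± 0.40), Nfkbia and the astrocyte connexin Gjb6 (0.40 ± 0.16), with adjusted p from 0.146 to 0.369. The 4 with a negative difference were the MAP kinase phosphatase Dusp1 (-0.42 ± 0.29), the cell cycle inhibitor Cdkn1a (-0.31 ± 0.36), Cebpd (-0.08 ± 0.14) and Nedd9 (-0.01 ± 0.23). The other 4 probe sets of Glul differed by -0.01, 0.01, 0.02 and 0.26, and the other 2 of Cebpd by 0.29 and 0.43, none of which passed. The summed signal of the 20 genes was 76588 and 72312 at 4 h, 69656 and 74489 at 24 h, and 52791 to 57881 on the late side, so the sums did not overlap. Signals are added on the linear scale, so bright genes such as Glul weigh most, and the sum was not taken without Glul. By this sum sample 1 of 24 h was the lowest early sample, and sample 2 of 24 h was above sample 2 of 4 h. Naive cortex gave sums of 59828 to 73264, which overlap the early side, and the naive mean was nearer the early mean in 8 of the 20 genes (40%, beside 53.9% of all probe sets). The mean of injured cortex at 4 h and 24 h was nearer the early sham mean in 18 of the 20 (90%, beside 41.6%). In bulk tissue, fewer cells of a type and less RNA per cell cannot be told apart. Sgk1 gave 1444 and 1575 at 4 h, 971.2 and 782.5 at 24 h and 496.8 to 845.6 in naive cortex, so both 4 h samples exceeded the naive range. Glul gave 16138 to 21727 early, 11064 to 17363 late and 20706 to 27834 in naive cortex, so it was highest in naive cortex. Sult1a1 gave 1371 to 1543 early, 679.1 to 1174.5 late and 406.5 to 758.5 in naive cortex, so every early sample exceeded both.

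The start regions of the genes that mark the comparison and of Klf9 are given to show what lies near their start sites. They are the 250 bases before and 50 after the RefSeq start on build GRCr8, for Klf9 at chr1:230126396-230126695 (plus strand), Fkbp5 at chr20:6543506-6543805 (minus strand) and 1 of 3 windows of Tsc22d3 at chrX:109009985-109010284 (minus strand). Capitals mark, on either strand, the core of a cAMP response element (TGACG), the core site of the factor Sp1 (GGGCGG) and the element that positions the start of transcription (TATAAA).
Klf9: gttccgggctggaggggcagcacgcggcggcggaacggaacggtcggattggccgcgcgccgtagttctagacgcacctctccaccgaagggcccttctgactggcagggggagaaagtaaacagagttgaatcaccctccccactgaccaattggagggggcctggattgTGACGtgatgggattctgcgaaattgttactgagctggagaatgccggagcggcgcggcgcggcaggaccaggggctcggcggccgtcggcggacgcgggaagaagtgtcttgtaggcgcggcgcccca
Fkbp5: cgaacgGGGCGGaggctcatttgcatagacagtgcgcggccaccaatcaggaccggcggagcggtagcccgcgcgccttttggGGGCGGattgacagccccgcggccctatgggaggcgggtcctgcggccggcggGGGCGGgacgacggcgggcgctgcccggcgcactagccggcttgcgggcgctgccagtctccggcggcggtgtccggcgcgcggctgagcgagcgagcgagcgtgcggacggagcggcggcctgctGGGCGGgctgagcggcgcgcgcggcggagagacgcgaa
Tsc22d3: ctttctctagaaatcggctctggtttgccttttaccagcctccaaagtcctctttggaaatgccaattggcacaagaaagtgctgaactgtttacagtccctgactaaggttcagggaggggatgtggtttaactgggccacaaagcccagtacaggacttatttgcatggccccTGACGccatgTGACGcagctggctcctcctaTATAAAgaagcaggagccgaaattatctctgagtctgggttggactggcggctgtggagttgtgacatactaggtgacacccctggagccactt
Over 33469 RefSeq windows of this length, 21.2% held TGACG, which occurs once in the Klf9 window and at 2 places in the Tsc22d3 window shown. The Sp1 core was in 33.1% of the windows and at 4 places for Fkbp5. The element TATAAA was in 14.2% of them and once in the Tsc22d3 window shown. The Tsc22d3 windows not shown held neither TGACG nor TATAAA, and they held the Sp1 core at 1 and 3 places. The palindrome of AGAACA, any 3 bases and TGTTCT, a full binding site of the glucocorticoid receptor, was in 0.0149% of all windows and in 0 of the 19 genes of the tested list that have a window. Its AGAACA part was in 20.7% of all windows and in 3 of the 19 genes. A gene was counted if any of its windows held the motif, whereas the percentages count single windows, so the units differ. Sites further away were not searched.

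Injured cortex and sham raphe, whose differences come from other samples, gave further readings of the same list. Each was fitted together with the 9 sham cortex samples, so its filter and p-values also draw on those samples and their spread. In injured cortex (8 samples at 4 h and 24 h against 11 at 7 d, 14 d and 28 d), 17 of the 20 genes were higher early, with a median of 0.33 (all genes 0.01), and 10 were higher at an unadjusted p under 0.05, beside 4.76% of all genes. In sham raphe (4 against 6), 17 were higher with a median of 0.41 (all genes 0.01), and 9 were higher at that p, beside 5.66% of all genes. None of the 20 passed in either. Of the 20, 14 were higher in all 3 comparisons, and 5 (Fkbp5, Tsc22d3, Sult1a1, Sgk1 and Gjb6) had an unadjusted p under 0.05 in both sham and injured cortex. Fkbp5 differed by 1.23 ± 0.29 in injured cortex (adjusted p = 0.0978) and by 1.40 ± 0.50 in sham raphe (adjusted p = 0.272). Its early signals in injured cortex ran from 380.3 over a median of 891.4 to 1660, and its late signals from 177.6 over 340.9 to 484.3. Tsc22d3 differed by 0.39 ± 0.14 in injured cortex (adjusted p = 0.344) and by -0.03 ± 0.14 in raphe (adjusted p = 0.953). Sgk1 differed by 1.56 ± 0.29 in raphe (adjusted p = 0.0582). The difference between sham and injured cortex in the early minus late value did not pass for any of these genes, at -0.92 ± 0.51 for Fkbp5 (adjusted p = 0.606) and -0.39 ± 0.25 for Tsc22d3 (adjusted p = 0.660).

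**Figure D4:**
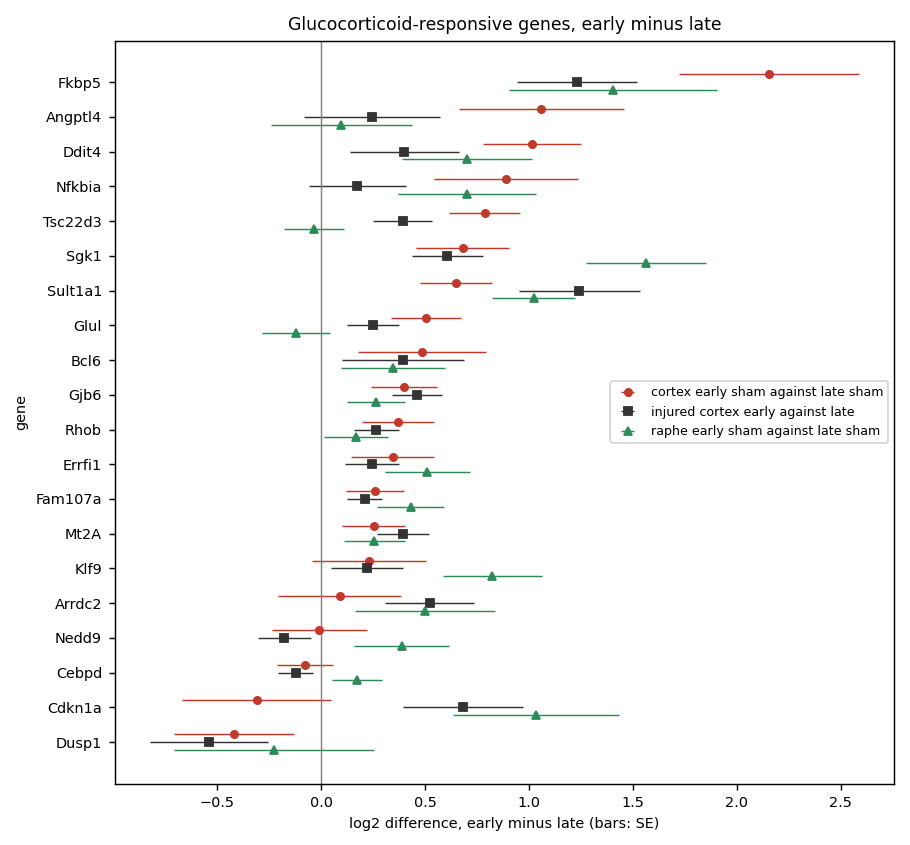
Log2 difference of early minus late with its standard error for the 20 tested genes of the glucocorticoid-responsive list in sham cortex (red circles), injured cortex (black squares) and sham raphe (green triangles). Fkbp5 lies above 1 in all 3, and Dusp1 lies below 0 in all 3.

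Gpd1 passed in injured cortex, where its 8 early signals (4275.5 to 5695, median 4907) all exceeded its 11 late signals (2230 to 3341, median 2844). The difference there was 0.78 ± 0.10 (adjusted p = 4.89e-04), and in sham raphe it was 1.33 ± 0.33 (adjusted p = 0.147). Evi2a, a membrane protein gene within an intron of Nf1, was low early in both: in sham cortex it gave 739.3 to 908.3 early and 1152.5 to 1637.5 late (-0.76 ± 0.14, adjusted p = 0.115), and in injured cortex it passed (-0.59 ± 0.10, adjusted p = 0.00693). In injured cortex 21 of 17999 probe sets passed (percent called 0.117), 15 higher (0.0833%) and 6 lower (0.0333%). Of the 10 that passed in sham cortex, 0 did so there. Klf9 differed by 0.82 ± 0.26 on the same probe set in injured cortex (adjusted p = 0.265) and by 1.01 ± 0.27 in raphe (adjusted p = 0.168). Pxk differed by 0.13 ± 0.14 and Slc45a3 by -0.18 ± 0.22 in injured cortex (adjusted p = 0.773 and 0.818).

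A test of the difference between injured and sham cortex in the early minus late value passed for 1 probe set of 17999 (percent called 0.00556), rc_AI639356_at, at -2.92 ± 0.43 (adjusted p = 0.00437). In injured cortex it gave 38.1 to 133.1 early (median 74.9) and 44.1 to 347.2 late (median 71.8), all below the early sham signals. In sham raphe, where 7 of 17879 probe sets passed (percent called 0.0392), it was again high early, at 302.9 to 773.6 against 62.9 to 321.7 late (1.62 ± 0.35, adjusted p = 0.109). AF034863_at (0.79 ± 0.30), U83119_f_at (0.71 ± 0.16), Rps15 (0.66 ± 0.19) and rc_AI072643_at (0.82 ± 0.25) also had positive differences in sham raphe, none of which passed. Their differences in injured cortex were -0.23 to -0.02. Between sham cortex and sham raphe the difference passed for 2 of 17879 probe sets (percent called 0.0112). They were rc_AI234828_at (1.56 ± 0.21, adjusted p = 0.00881) and Crym, a thyroid hormone binding protein (1.58 ± 0.25, adjusted p = 0.0438). In sham raphe Crym itself was lower early than late (log2 difference -1.65).

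At 4 h alone, against the same 5 late samples, 11 probe sets passed (percent called 0.0674), 4 higher (0.0245%) and 7 lower (0.0429%). Higher were B4galt2, a galactosyltransferase (1.69 ± 0.19, adjusted p = 0.0406), and 3 probe sets without a symbol. B4galt2 gave 922.1 and 744.9 at 4 h, 198.3 to 308.5 late and 240.6 to 633.1 in naive cortex, but its brighter probe set rc_AI103754_at differed by -0.33 (adjusted p = 0.821). Lower among named genes were Sox18, an endothelial transcription factor (-2.26 ± 0.24), Pprc1, a coactivator of mitochondrial genes (-2.34 ± 0.31), Tbrg4 (-1.72 ± 0.23), which acts on mitochondrial RNA, and Tmem120a, a membrane protein (-1.24 ± 0.16), with adjusted p of 0.0406 to 0.0407. A brighter probe set of Tmem120a, rc_AI011746_at, differed by -0.17 (adjusted p = 0.960). In all 4 genes both 4 h signals were under the 95th percentile of the foreign-gene controls. Counted against it, the late means were at least 4.85-fold higher for Sox18, 3.67-fold for Pprc1, 3.00-fold for Tbrg4 and 1.87-fold for Tmem120a. Sox18 gave 83.9 and 105.2 at 4 h, 248.4 and 453.5 at 24 h, 456.3 to 683.7 late and 309.1 to 555.2 in naive cortex. One of the higher probe sets, rc_AI176456_at, gave 13704 and 10891 at 4 h, 5269 and 6528 at 24 h, 1863 to 3846 late and 4949 to 6997 in naive cortex (2.17 ± 0.28). It also passed in injured cortex (1.19 ± 0.22, adjusted p = 0.0163) and in sham raphe (2.02 ± 0.34, adjusted p = 0.0462), and it has no gene in the annotation. Fkbp5 at 4 h differed by 2.81 ± 0.44 (adjusted p = 0.0784), and Cebpb, a transcription factor of the acute-phase response, by 1.45 ± 0.21 (adjusted p = 0.0594). Cebpb gave 478.2 and 539.7 at 4 h, 268.4 and 226.6 at 24 h and 141.4 to 238.1 late. The 11 calls were 0 without either 4 h sample, without the 14 d sample or without sample 1 of 28 d.

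At 24 h alone, 5 probe sets passed (percent called 0.0306), 2 higher (0.0122%) and 3 lower (0.0184%). Lower were Snap91, a clathrin assembly protein of nerve terminals (-2.36 ± 0.19, adjusted p = 0.00547), Fem1b, a substrate receptor of a ubiquitin ligase (-1.71 ± 0.19, adjusted p = 0.0221), and Plin3, a lipid droplet protein (-1.39 ± 0.15, adjusted p = 0.0221). Higher were rc_AI639356_at and AF034863_at. Snap91 gave 44.9 and 49.5 at 24 h, 296.1 and 209.7 at 4 h and 318.9 to 430.5 late, while its naive signals spread from 31.6 to 421.0. Both 24 h signals of Snap91 and of Plin3 were under the 95th percentile of the foreign-gene controls, against which the late means were at least 3.17-fold and 2.55-fold higher. The brighter Snap91 probe set rc_AI136849_at differed by -0.29 (adjusted p = 0.760). The count was 1 without sample 2 of 24 h, either 4 h sample or sample 1 of 28 d, and 11 without sample 1 of 24 h. Between 4 h and 24 h, 0 of 16328 probe sets passed with limma (576, or 3.53%, at an unadjusted p under 0.05), so no gene was shown to differ between these times.

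Other genes with the smallest p in the comparison of early with late did not pass, and their sides did not overlap. Rps6ka5, a kinase of histone H3 and CREB, gave 298.6 to 394.5 early and 140.0 to 213.1 late (0.90 ± 0.15, adjusted p = 0.0714). The calcium pump gene Atp2b4 gave 693.8 to 896.7 early, 275.7 to 550.1 late and 426.0 to 485.2 in naive cortex (1.11 ± 0.19, adjusted p = 0.0814). Ubxn4 (0.83 ± 0.14), of protein degradation at the endoplasmic reticulum, and Gatad2b (0.94 ± 0.17), of the NuRD chromatin complex, had adjusted p of 0.0834 and 0.0938. With lower signals early were Pgm2l1, which makes glucose 1,6-bisphosphate in brain (-1.10 ± 0.18, adjusted p = 0.0714), Cmas, the enzyme that activates sialic acid (-1.93 ± 0.32, adjusted p = 0.0796), Atrn, whose loss in rats causes failure of myelin (-0.74 ± 0.12, adjusted p = 0.0796), and Abi3 (-1.17 ± 0.23, adjusted p = 0.132). Cmas gave 231.8 and 45.9 at 4 h, 57.9 and 107.1 at 24 h and 358.8 to 570.7 late. Atrn gave 1193 to 1307 early and 1863 to 2419 late, a narrow early group below every late sample. The other Atrn probe set, rc_AA859645_at, had the opposite sign (0.31 ± 0.13, adjusted p = 0.410), and the other 2 probe sets of Pgm2l1 differed by -0.10 and -0.41.

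None of the other gene lists had a member that passed. Of 24 lists, the summed signal of the sides did not overlap in 2, the glucocorticoid-responsive list and the list of inflammation and the acute phase (22890 to 24958 early and 18386 to 22418 late over 19 genes). In the latter 13 of 19 were higher early, with a median of 0.22, and 4 were higher and 1 lower at an unadjusted p under 0.05 (all genes 4.88% and 5.03%). Cebpb, the cytokine gene Il1b (0.55 ± 0.21), Nfkbia and the adhesion gene Selp (0.70 ± 0.31) were the 4, and Vcam1 (-0.28 ± 0.12) the 1, with adjusted p from 0.210 to 0.414. Nfkbia is in both lists, and 17 of the 36 genes of this list were not tested, most of them for signals under the filter, among them Il6, Tnf, Ccl2 and Socs3. Of 18 myelin and oligodendrocyte genes, 13 were lower early, with a median of -0.18, and 5 were lower and 1 higher at an unadjusted p under 0.05, against the same shares of all genes. Ermn, a cytoskeletal protein of oligodendrocytes, gave 1179 to 1563 early and 1961 to 2762 late (-0.64 ± 0.14, adjusted p = 0.168), but the list's summed signals overlapped. The same list had medians of 0.09 in injured cortex and -0.13 in sham raphe. Immediate early genes had a median of -0.17 (10 of 31 higher, 0 at an unadjusted p under 0.05 in either direction). Against the same late samples, their median was -0.28 at 4 h (6 of 31 higher, 7 lower at that p, beside 3.74% of all genes) and 0.27 at 24 h (19 of 31 higher). In injured cortex it was -0.30 (4 of 31 higher, 9 lower at that p, beside 5% of all genes). The medians were, for striatal genes, -0.20 (4 of 10 higher) and, for genes of cortical projection neurons, 0.13 (11 of 18 higher).

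The other 18 lists cover glia, vessels, blood, meninges, brainstem, interneurons, ion channels, synapses, metabolism, stress and growth. Their medians lay between -0.09 and 0.07 and every summed signal overlapped. They remained once the lists above, which have the most extreme medians, were set aside, so this narrow range follows from that choice. Markers of other cells and tissues that a dissection could hold gave overlapping sums on the 2 sides. For blood cells the sums were 50489 to 76947 early and 44598 to 92453 late. For choroid plexus and meninges they were 23922 to 29156 early and 25764 to 32610 late. For striatum, which is among the lists set aside and has the lowest median, they were 14571 to 16761 early and 14193 to 17156 late. The clock gene Bmal1 gave 203.7 to 401.4 early and 425.8 to 693.2 late, with 261.5 to 347.1 in naive cortex (-0.68 ± 0.22, adjusted p = 0.274). Its other probe set, AF015953_at, differed by 0.02 ± 0.25 (adjusted p = 0.984), and the hours of the day at which tissue was taken are not in the labels.

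**Figure D5:**
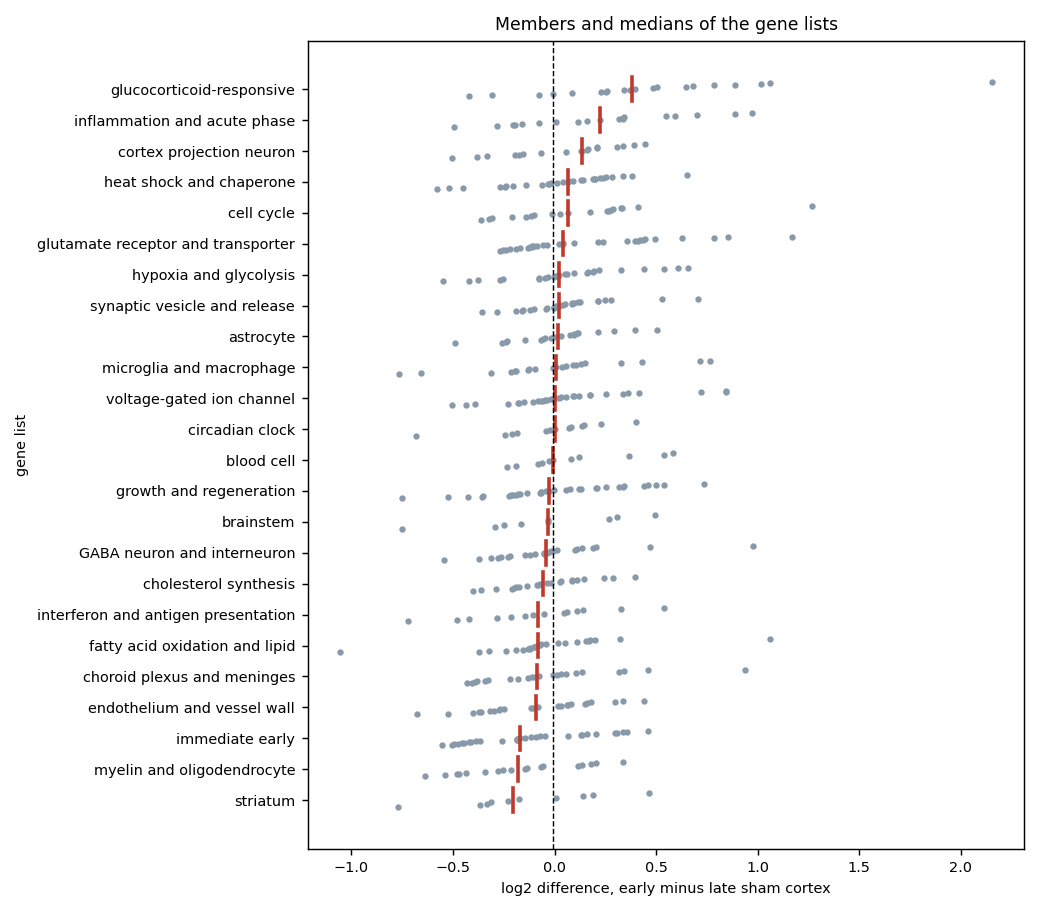
Log2 difference of early minus late sham cortex for each tested member of the 24 gene lists (grey points), with the median of each list (red bar) and the median of all 8342 genes (dashed line, -0.01). The glucocorticoid-responsive list has the highest median, 0.38, and Fkbp5 is its highest point.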

How the data were processed

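RNA from rat somatomotor cortex was measured on Affymetrix arrays of 3 types. The deposited values are signal intensity values on a linear scale, 1 per probe set. The authors had brought the arrays to a common level, since the mean after trimming 2% at each end lay between 800.5 and 801.2 on all 27. For the upstream software, its version was not given in the sources used here. This scaling was kept, 32 was added and log2 taken. Of 26202 probe sets without controls, 18178 had a single gene symbol in the platform annotation updated through RefSeq, 391 several and 7633 none. Dim probe sets were left out: testing needed 4 or more arrays of a fit with a signal over the 40th percentile of the array.

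Group means were fitted within each array type with limma 3.58.1 in R 4.3.3 (lmFit and eBayes, two-sided), with Benjamini-Hochberg adjustment over the 3 types together and a threshold of 0.05. The early against late fit holds the 9 samples alone, and the fits of injured cortex and of raphe hold these 9 as well. The comparisons at 4 h and 24 h share the 5 late samples. Named genes are Fkbp5 and Tsc22d3, the 12 largest rises and falls past the threshold or, where fewer than 6 passed, the 6 with the smallest p in a direction, the brightest probe set standing for a gene. Other comparisons name 6 or 3 each way, the tests of a difference between comparisons 8 or 4, and a list up to 4 members. Where every sample of a side was under the 95th percentile of the foreign-gene controls, a fold is given as a lower bound against that percentile. All probe sets that passed early against late are given too, and other list members and probe sets were named after their values were seen. The members, the comparisons and the lists were chosen with earlier results of these data known. No 2 of the arrays held identical values. Injured samples were grouped by their titles. On the type A arrays of injured cortex at 24 h, samples 1 and 2, the description gives another time. One injured sample of 7 d was left out.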

Additional observations from a re-analysis of the deposited data

Results flagged for a closer look

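Signals of the named genes were screened for a sample far from the others of its group, by the gap to its nearest neighbour over the range of the group on the log2 scale. Of 138 groups examined, 12 exceeded the 95% limit, where chance gives about 1 in 20. On the early side, sample 2 of 24 h was far below the others in Fkbp5 (301.8 against 1461.8 to 1743.2, ratio 0.897) and Tsc22d3 (1826 against 2692.6 to 2912.6, ratio 0.831), and above them in Slc45a3 (66.3 against 52.3 to 54.1, ratio 0.865). Sample 1 of 24 h was above the others in Pxk (342.4, ratio 0.914). Sample 2 of 4 h was below them in Bmal1 (203.7 against 380.5 to 401.4, ratio 0.919) and Ntrk2 (2710.6 against 3198.8 to 3243.3, ratio 0.923). On the late side, sample 2 of 7 d was high in Atp2b4 (550.1, ratio 0.714), sample 2 of 28 d high in Ermn (2762.1, ratio 0.740) and sample 1 of 7 d low in Foxp1 (663.2, ratio 0.751). Among naive samples, sample 2 was low in rc_AI072643_at (129.6 against 336.1 to 379.1, ratio 0.882), sample 1 high in Rps15 (1369.9, ratio 0.838) and sample 3 low in Ermn (1853, ratio 0.844).

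A test of the difference passed for rc_AI639356_at between injured and sham cortex (-2.92, injured minus sham) and, between sham cortex and sham raphe, for rc_AI234828_at (1.56) and Crym (1.58).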

How the results depend on the processing

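The small number of samples and the low signals limit the comparison, and the number of probe sets past the threshold moved with most choices while the sign of the difference was kept in the alternatives run for the 46 probe sets named early against late. Of 10 calls early against late, 2 were left with the actin 3' over 5' ratio as a covariate, 2 with sample 2 of 14 d included and 5 with sample 2 of 3 months added. There were 11 with both 3 months samples added, an alternative chosen after seeing the data. The count was 110 with the spread of all cortex groups, 70 with array quality weights, 18 with the filter at the 60th percentile and 17 with a larger value added before the log. Leaving out each sample gave 0 to 49, and 1 to 52 with the tested probe sets held fixed (16 without sample 1 of 7 d), also chosen after seeing the data.

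At 4 h the 11 calls became 3 with the stricter filter and 0 without a filter, and 0 to 11 when 1 sample was left out. At 24 h the 5 became 2 with the stricter filter and 1 to 11 when 1 sample was left out. Between 4 h and 24 h the count of 0 became 2 with 1 added, and 0 to 2 without 1 sample. The 21 of injured cortex ranged from 8 to 36 without 1 sample. The 1 call of injured minus sham became 3 with adjustment within each array type, 3 with sample 2 of 7 d of injured cortex included, 3 without the arrays of conflicting labels, and 1 to 3 without 1 sample. In raphe the 7 became 13 with adjustment within each type, 3 with the stricter filter and 11 with the larger added value. Without 1 sample they became 1 to 82. The 1 came without sample 2 of 24 h of sham cortex, which shared that fit. The 2 of cortex minus raphe became 1 with the stricter filter, 1 without a filter, 1 with the larger added value and 0 to 5 without 1 sample. The lists' count of 0 became 4 with the spread of all cortex groups, 3 with array weights, 1 when the probe sets of a gene were averaged and 0 to 1 without 1 sample. The cause of these shifts was not tested.

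Replicate numbers did not pair the samples: the deviations of same-numbered samples correlated by -0.06 to 0.09 between times, with 0 of 6 pairs over 0.1. With the replicate number as a block there were 10 calls early against late, 3 at 4 h, 1 at 24 h and 1 for cortex minus raphe.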

Other observations

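When all cortex groups of the series shared 1 estimate of the spread, 110 probe sets passed early against late, 77 higher and 33 lower, and 7 of the 10 were among them. Under that fit Gpd1 (adjusted p = 5.83e-05), Fkbp5 (4.55e-04), Tsc22d3 (0.00336) and Klf9 (0.00336) passed. So did Slc2a1, the glucose transporter of brain vessels, which was chosen after its values were seen (0.88 ± 0.15 on the probe set M13979_at, adjusted p = 0.00336). Its other 3 probe sets tested had positive differences too. In the fit of the 9 samples alone Slc2a1 did not pass (adjusted p = 0.167), and in injured cortex it did (0.59 ± 0.12, adjusted p = 0.0279). Gja1 and Mgll also passed under the shared spread on 1 probe set each, but their other probe sets did not.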
